A study of Mus musculus with 4 samples.

Results

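The respiratory chain and ATP synthase genes of the mouse were described in activated B lymphoma cells with and without Mbd4. Members were the transcript clusters that the array's gene table pairs with exactly 1 symbol starting with Nduf, Uqcr, Atp5 or Cox4 to Cox8, or with Sdha, Sdhb, Sdhc or Sdhd. The rule took 114 clusters of 89 genes, out of 21789 clusters with 1 symbol. Of the genes, 81 encode subunits or tissue isoforms of subunits of complexes I to V, 7 encode complex I assembly factors (Ndufaf genes) and 1, Cox7a2l, encodes a factor that joins complexes into supercomplexes. A further 6 clusters of the same families were paired with several symbols and were left out.

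Mbd4 KO cells and control cells of the line CH12.F3, a mouse B lymphoma line used to study switching from IgM to IgA, were each measured on 2 arrays. Both groups had received the IgA-inducing stimuli for 24 h: CD40L at 25% by volume, TGFb at 0.2 ng/ml and IL4 at 5 ng/ml, in medium with 6% serum. The series' design text calls the samples of a group independent, but the sources used here do not say whether they were separate cultures or how many knockout clones were used, so p-values measure the spread between these arrays. A clonal difference and the loss of Mbd4 cannot be told apart.

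The respiratory chain passes electrons from NADH (complex I) and succinate (complex II) through coenzyme Q, complex III and cytochrome c to oxygen at complex IV, and complexes I, III and IV pump protons. Complex V, the ATP synthase, lets the protons return through a ring of c subunits whose rotation drives the catalytic head, while a peripheral stalk holds the head still. Apart from a few subunits made from mitochondrial DNA, the parts are encoded by nuclear genes scattered over many chromosomes. In activated B cells this system supplies ATP and the precursors of growth. The comparison asks whether subunits encoded on chromosome 16, where many genes were lower in Mbd4 KO cells, differed alone or together with the other subunits of their complex.

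Mbd4, the DNA glycosylase gene that was targeted, read 6.47 and 6.49 in Mbd4 KO cells against 8.74 and 8.77 in control cells (log2, as all values here). The arrays thus ranked by this gene as their labels say, with a difference of -2.28 ± 0.066 (SE; limma adjusted p = 0.0002). Where its probes lie relative to the deleted part is unknown here. All 11 B cell markers measured lay above 6.06, the value under which the dimmest 30% of clusters lie, and 1 of them, Cd72, was called lower (-0.67). Among 6 macrophage markers, of which 2 lay above the median cluster, Adgre1 was called lower (-1.06). Of the 703 clusters on chromosome 16, 40 were called lower (5.69%) and 41 in either direction, and the median difference of all 703 was -0.14, against 0.021 over all 21789 clusters.

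No member passed the threshold of an adjusted p of 0.05 (limma, Benjamini-Hochberg adjustment over all clusters), where 1.39% of all clusters did (0.955% lower and 0.431% higher in Mbd4 KO cells). At an unadjusted limma p under 0.05 there were 3 member clusters, 1 lower and 2 higher, which is 2.63% of the members against 13.8% of all clusters. Both Mbd4 KO arrays lay below both control arrays in 21 member clusters (18.4%, against 18.3% of all clusters) and above them in 30 (26.3%, against 26.7%). Those shares lie near the background. The median difference over the 89 genes, each taken by its brightest cluster, was 0.016, with quartiles of -0.018 and 0.075, against a median of 0.023 and quartiles of -0.058 and 0.10 over all genes. The median size of a difference, whatever its sign, was 0.056 for the members and 0.082 for all genes.

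Since a p that misses the threshold does not show that a gene stayed the same, the intervals bound what could have gone unseen. By their brightest clusters, 69 of the 87 member genes off chromosome 16 had a 95% interval (limma) lying wholly within 0.32 of zero on either side, the size of the Atp5o difference given further on. The family was bright, with a median level of 10.7 over its genes against 7.15 over all genes, and 88 of the 89 genes lay above the dimmest 30%. Several small subunits have processed pseudogenes, and 17 member genes had more than 1 cluster, such as Atp5l with 6. Clusters of 1 gene may therefore read the same RNA or related copies, and their differences lay at most 0.19 apart.

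Promoter windows of 2 chromosome 16 members, from RefSeq (GRCm38.p6), are shown because these genes carry the comparison that follows; each runs 5′ to 3′ on the minus strand, from 250 bases before a start site to 50 after it. Capitals mark matches, on either strand, to the letters CCGGAAG (the site of the ETS factor GABP), CGCANGCG (the core site of NRF1) and AAGATGGCG (the site of YY1), factors known to bind respiratory gene promoters; no matches overlap in these windows.
Atp5j (chr16:84834927-84835226): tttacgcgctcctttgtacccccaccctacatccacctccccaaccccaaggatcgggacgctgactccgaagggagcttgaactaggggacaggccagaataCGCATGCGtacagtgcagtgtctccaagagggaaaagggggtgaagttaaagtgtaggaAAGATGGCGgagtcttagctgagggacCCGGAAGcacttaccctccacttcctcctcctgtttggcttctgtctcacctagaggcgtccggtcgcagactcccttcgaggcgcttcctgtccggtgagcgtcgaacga
Atp5o (chr16:91931581-91931880): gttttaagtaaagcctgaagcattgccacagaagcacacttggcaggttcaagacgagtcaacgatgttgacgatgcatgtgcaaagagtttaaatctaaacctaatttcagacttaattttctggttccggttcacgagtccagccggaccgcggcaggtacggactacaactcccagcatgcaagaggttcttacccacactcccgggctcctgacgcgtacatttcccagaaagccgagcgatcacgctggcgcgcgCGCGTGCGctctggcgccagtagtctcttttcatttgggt
The Atp5j window faces the start of Gabpa, which encodes the DNA-binding subunit of GABP: the start sites lie 148 bases apart and point away from each other, and the windows share 247 bases. It holds the NRF1, YY1 and GABP letters 147, 88 and 61 bases before the Atp5j start, and a second RefSeq start of Atp5j has none of them. Atp5o holds the NRF1 letters alone, from base 11 of the transcript.

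Among the 73 member genes with a window in the table, 28 held the NRF1 letters (38.4%, against 13.6% of 15563 genes on the array), 18 the GABP letters (24.7% against 13.6%) and 7 the YY1 letters (9.59% against 2.29%). Atp5j was the 1 member with all 3, and 23 of the 15563 genes had them, Atp5j and Gabpa included. These matches describe the letters of the windows only.

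ATP synthase held both members that lie on chromosome 16, and both encode parts of the peripheral stalk. Atp5o, whose product (OSCP) ties the stalk to the catalytic head, read 10.71 and 10.63 in Mbd4 KO cells, against 10.96 and 11.01 in control cells. The groups did not overlap, and the difference of -0.32 ± 0.071 (SE; 1.24-fold lower; 95% interval -0.49 to -0.14) was the lowest in the family, with an unadjusted limma p of 0.00431 and an adjusted p of 0.126. It passed in 1 alternative, with an intensity trend in limma's prior (adjusted p = 0.00396), a setting that calls 5.14% of all clusters.

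Atp5j, which encodes subunit F6 of the same stalk, read 11.12 and 11.07 in Mbd4 KO cells, against 11.20 and 11.32 in control cells. Its groups did not overlap either, as in the 53.2% of chromosome 16 clusters whose Mbd4 KO arrays both lay below the control arrays, and the difference was -0.17 ± 0.075 (SE; limma adjusted p = 0.402). In RNA from a whole culture, less RNA per cell and fewer cells that hold the RNA cannot be told apart.

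The other 2 stalk genes lie on other chromosomes and differed by less. Atp5pb, of the membrane-anchored subunit b, read 12.01 and 12.03 in Mbd4 KO cells against 12.04 and 12.06 in control cells (difference -0.03, limma adjusted p = 0.899). Atp5h, of subunit d, read 12.06 and 12.05 against 12.07 and 12.15 (-0.06, adjusted p = 0.772), in the same order of groups. Their 95% intervals were -0.19 to 0.13 and -0.23 to 0.11. Both stop short of the Atp5o difference but overlap its interval (-0.49 to -0.14), and both reach the Atp5j difference.

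The rest of the ATP synthase centred on no difference: the median over its 15 genes off chromosome 16 was 0.00, with 7 lower, 7 higher and Atp5mpl at 0.00. In the catalytic head, Atp5b read 12.92 and 13.01 in Mbd4 KO cells, against 13.00 and 12.95 in control cells, and Atp5a1 differed by 0.0031. In the central stalk, Atp5e, of subunit epsilon, read 9.22 and 9.50 in Mbd4 KO cells against 9.57 and 9.56 in control cells; its difference of -0.20 ± 0.10 (SE; adjusted p = 0.468) was -0.060 without the first Mbd4 KO array and -0.34 without the second. By their brightest clusters, the c ring genes Atp5g1 and Atp5g2 differed by 0.085 and 0.096. Atp5j2, of subunit f in the membrane, differed by 0.13, the highest value in this complex by brightest clusters. The dimmest Atp5g2 cluster had 0.16. All 6 clusters of Atp5l, of subunit g, lay between -0.13 and -0.036, and 3 of Atp5md between -0.16 and -0.059; with an intensity trend, 2 of those 3 were called lower (the adjusted p values were 0.0344 and 0.0419).

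**Figure D1:**
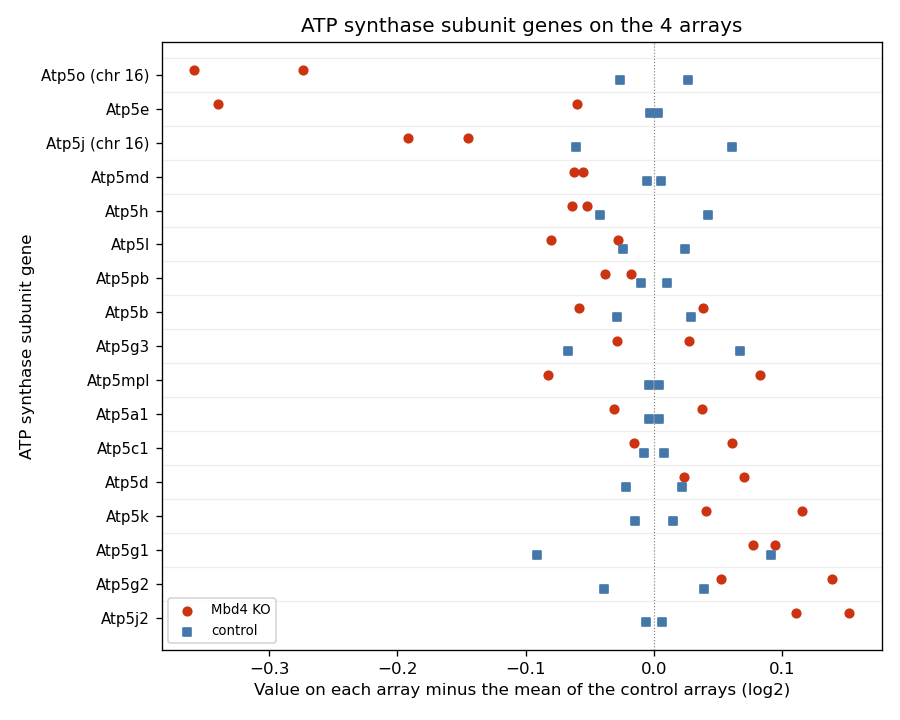
ATP synthase subunit genes (rows) on the 4 arrays, each value minus the mean of the control arrays (log2); circles are Mbd4 KO arrays and squares control arrays, with 1 cluster per gene. Atp5o has the lowest pair of Mbd4 KO values, and its difference is -0.32.

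Set against its partners, Atp5o was lower in Mbd4 KO cells by more than the spread between arrays. Its value minus the mean of the 15 ATP synthase genes off chromosome 16 was -1.21 and -1.30 in Mbd4 KO cells, against -0.97 and -0.90 in control cells, a relative difference of -0.32 (between -0.36 and -0.28 with any 1 array left out). By the brightest cluster of each gene, the 95% intervals of 14 of the 15 partners lie wholly above the Atp5o difference, Atp5e being the exception. Over all 28 clusters of these partners the intervals of 25 do, and those that reach it belong to Atp5e and to the 2 dimmer clusters of Atp5md. These counts take the Atp5o difference as a point. Its own interval, -0.49 to -0.14, overlaps those of several partners, such as Atp5h (-0.23 to 0.11) and Atp5a1 (-0.16 to 0.17). For Atp5j the relative difference was -0.17 (from -0.24 to -0.10 with any 1 array left out), and the intervals of 7 of the 15 partners lie above its difference, so that an equal difference could have gone unseen in the other 8. With 2 arrays a group the exact two-sided permutation test cannot give a p below 0.333, which it gave for both.

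Complex I, the NADH dehydrogenase, had no member on chromosome 16. Subunit genes without a cluster of 1 symbol, such as Ndufb4, were not members, and their chromosomes were not looked up. The 34 complex I subunit genes among the members had a median difference of 0.032 and ranged from -0.16 to 0.18, with 13 lower and 21 higher. Ndufv1, which encodes the core subunit that binds NADH, had the highest value and read 11.38 and 11.25 in Mbd4 KO cells, against 11.21 and 11.06 in control cells (0.18 ± 0.085, SE; limma adjusted p = 0.434). Among accessory subunits, Ndufb2 differed by 0.16, Ndufa5 by 0.14, Ndufb3 by -0.11, Ndufv3 by -0.11 and Ndufa12 by -0.16. Ndufa12 read 10.69 and 10.55 in Mbd4 KO cells, against 10.76 and 10.81 in control cells, with an adjusted p of 0.44. The 6 core subunit genes had a median of 0.040 and the 28 accessory ones a median of 0.027. The 7 Ndufaf assembly factors lay between -0.20 (Ndufaf2) and 0.073 (Ndufaf7).

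Complex II, the succinate dehydrogenase, had differences close to 0 in its 4 genes. Its flavoprotein gene Sdha differed by 0.031, the iron-sulfur subunit gene Sdhb by 0.014 and the membrane anchor genes Sdhc and Sdhd by 0.067 and 0.056, with limma adjusted p from 0.76 to 0.96. In complex III, the cytochrome bc1 complex, the median over 8 genes by their brightest clusters was 0.043, from -0.0060 for Uqcrq to 0.16 for Uqcr10. Uqcrfs1, of the Rieske iron-sulfur protein, differed by 0.12. Uqcr11 had 0.12 in its brighter cluster and 0.16 in its dimmer one. In complex III the control arrays differed from each other more than the groups did. The median deviation of the 8 genes from their own means was 0.030 and 0.017 on the Mbd4 KO arrays, against 0.035 and -0.087 on the control arrays. With any 1 array left out, the median difference ran from 0.0047 to 0.10, and that of Uqcr10 from 0.086 to 0.24.

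Complex IV, the cytochrome c oxidase, had a median difference of 0.019 over 18 genes, all off chromosome 16. By their brightest clusters, the 10 subunits used in most tissues lay between -0.13 (Cox7a2) and 0.074 (Ndufa4), Cox5a differing by -0.086. The dimmer Cox5b cluster had -0.20 ± 0.20 (SE). The tissue isoforms were dimmer and varied more, from -0.11 for the testis isoform Cox7b2 to 0.37 for the muscle isoform Cox6a2. Cox6a2 read 7.68 and 7.58 in Mbd4 KO cells, against 7.46 and 7.06 in control cells (limma adjusted p = 0.319), and its difference ran from 0.17 to 0.57 with any 1 array left out. Ndufa4l2, a paralogue of Ndufa4 known to be induced by hypoxia, read 6.93 and 6.79 against 6.63 and 6.54, in the same order of groups (0.28 ± 0.080, SE; adjusted p = 0.217). Cox8c, a testis isoform, differed by 0.21 (0.077 to 0.34 with any 1 array left out). These 8 isoforms had levels from 5.52 to 7.93, and 4 muscle markers had levels from 6.24 to 8.40 with 0 called by limma.

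**Figure D2:**
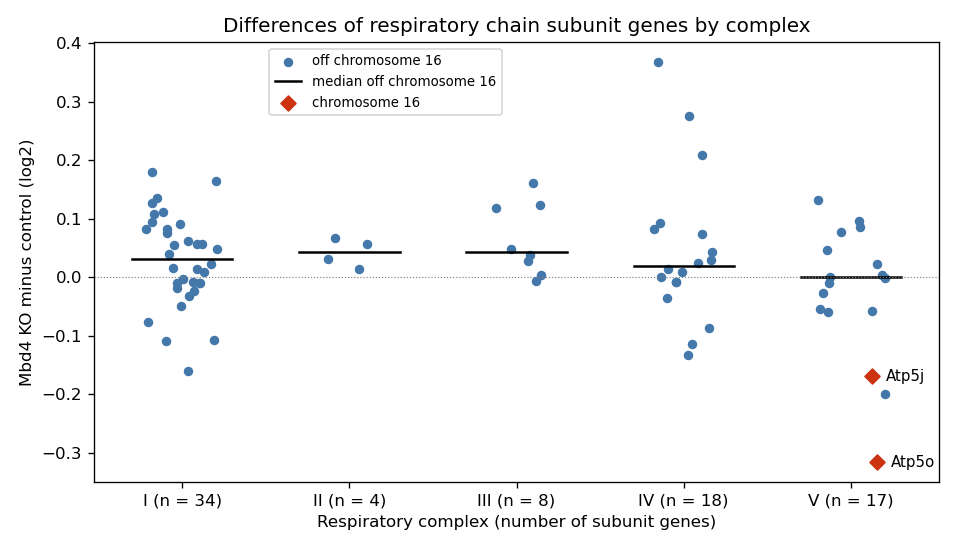
Difference between Mbd4 KO and control arrays (log2) of each subunit gene, by respiratory complex, with horizontal bars at the median of the genes off chromosome 16. The bars lie between 0.00 (complex V) and 0.044 (complex II), and the chromosome 16 genes Atp5o (-0.32) and Atp5j (-0.17) lie below that of complex V.

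The other genes of oxidative phosphorylation, in 10 lists of 101 measured genes, gave 2 calls over 117 distinct clusters, both lower in Mbd4 KO cells, where 0.955% of all clusters were called lower. The lists' genes had a median difference of -0.0031. Cox17 encodes the chaperone that carries copper to complex IV, and lies on chromosome 16. It read 7.78 and 7.84 in Mbd4 KO cells, against 8.60 and 8.53 in control cells, and fell by 0.75 on the log2 scale (SE 0.070; 1.69-fold lower; limma adjusted p = 0.00949). The groups were far apart relative to their spread, and with any 1 array left out the difference ran from -0.79 to -0.72. The call was lost in those fits, which leave 1 array in a group, and when all 35556 clusters were fitted (limma adjusted p = 0.115).

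The complex that Cox17 serves showed no difference of that size. By their brightest clusters, the other 17 complex IV assembly genes had a median difference of 0.00018 and lay between -0.15 (Higd1a, whose second cluster had 0.23) and 0.097, and the 95% intervals of all 18 complex IV subunit genes lie wholly above the Cox17 difference. Relative to the mean of those 18, Cox17 lay at -1.66 and -1.52 in Mbd4 KO cells, against -0.78 and -0.79 in control cells, a relative difference of -0.80 (exact permutation p = 0.333, the smallest possible).

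Both complex I assembly genes on chromosome 16 had low values in Mbd4 KO cells too, without passing. Timmdc1, which helps build the membrane arm, read 10.63 and 10.61 in Mbd4 KO cells, against 11.00 and 10.95 in control cells (-0.35 ± 0.067, SE; limma adjusted p = 0.0857). Tmem186, of the same assembly machinery, read 6.60 and 6.93 against 7.15 and 7.36, in the same order of groups (-0.49 ± 0.13, SE; adjusted p = 0.186). The intervals of all 34 complex I subunit genes lie wholly above both differences. The intervals of Timmdc1 (-0.52 to -0.19) and Tmem186 (-0.81 to -0.17) do overlap that of Ndufb3 (-0.35 to 0.13), among others. The other 8 assembly genes of that list had a median of 0.014. Timmdc1 passed without the dimmest 30% of clusters (adjusted p = 0.0333) and, like Tmem186 (0.046), with an intensity trend (0.0015).

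**Figure D3:**
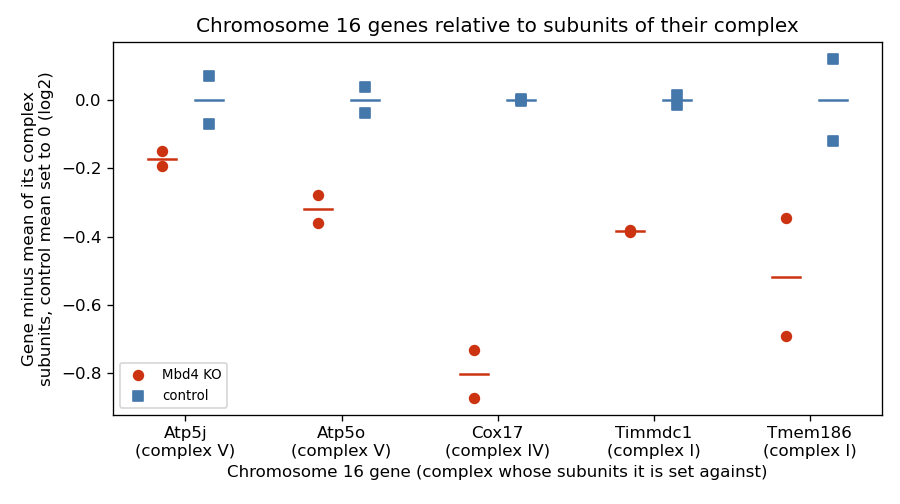
Value of each chromosome 16 gene minus the mean of the subunit genes of its complex on the same array, with the mean of the control arrays set to 0 (log2); circles are Mbd4 KO arrays, squares control arrays and lines group means. In all 5 genes both Mbd4 KO arrays lie below both control arrays, with relative differences from -0.80 for Cox17 to -0.17 for Atp5j. By the values themselves, 53.2% of chromosome 16 clusters and 18.3% of all clusters have that order.

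Gabpa was the 1 regulator of respiratory genes on chromosome 16. It read 9.83 and 9.87 in Mbd4 KO cells, against 10.13 and 10.13 in control cells, a difference of -0.28 ± 0.066 (SE; limma adjusted p = 0.145) that passed with an intensity trend alone (0.0138). Of the 15 other regulators, Tfam, the factor that packages and transcribes mitochondrial DNA, had the lowest value (-0.16, adjusted p = 0.378) and Tfb1m the highest (0.14). The median of the 15 was 0.0074.

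The second call was Vdac3, an outer membrane channel gene on chromosome 8. A pair of its clusters share all 4 values and count as 1, with 10.43 and 10.47 in Mbd4 KO cells, against 11.05 and 10.92 in control cells (-0.54 ± 0.074, SE; limma adjusted p = 0.0397). The third and brightest cluster had a difference of -0.41 (adjusted p = 0.0535). The call was lost with any 1 array left out (adjusted p from 0.126 to 0.207), with the replicate number as a block (0.0773) and when all clusters were fitted (0.187). Vdac1 differed by 0.065, the brighter cluster of Vdac2 by -0.0012 and its other cluster by -0.046, and the adenine nucleotide carrier gene Slc25a4 by -0.077.

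In the remaining lists 0 clusters passed limma's threshold. The lowest values were those of Coq10b, a coenzyme Q-binding protein gene (-0.63 ± 0.13, SE; adjusted p = 0.107), and of Pdhx, which binds the E3 subunit into pyruvate dehydrogenase (-0.52 ± 0.10, SE; adjusted p = 0.0874), and the highest that of Pdhb, of the same complex (0.22, adjusted p = 0.41). Without the dimmest 30% of clusters, Coq10b and Pdhx passed (limma adjusted p = 0.0483 and 0.0376), as they did with an intensity trend (0.0128 and 0.00397). Coq8a differed by 0.18. In complex II and III assembly the ends were Sdhaf3 (0.21) and Uqcc3 (-0.16), and for the ATP synthase they were Fmc1 (0.19) and Atpaf2 (-0.096). By their brightest clusters, cytochrome c (Cycs) differed by -0.12, its testis form Cyct by -0.12 and cytochrome c1 (Cyc1) by 0.0059. The other Cycs clusters had -0.11 and, in the dimmest, 0.13. Of the subunits encoded in mitochondrial DNA, ND3 of complex I and COX2 of complex IV were measured, with differences of -0.12 and -0.092 in their brightest clusters (adjusted p = 0.585 and 0.663). Their dimmer clusters had -0.15 for ND3 and 0.096 for COX2.

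**Figure D4:**
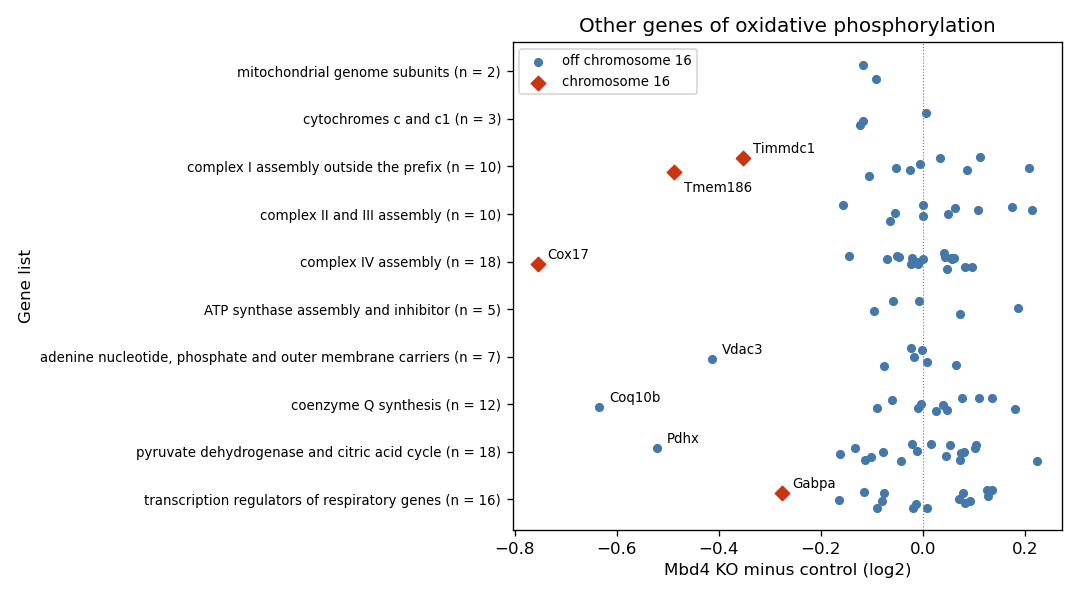
Difference between Mbd4 KO and control arrays (log2) of the other genes of oxidative phosphorylation, by list, with chromosome 16 genes as diamonds. Cox17 has the lowest value of all (-0.75), and the chromosome 16 genes Tmem186 (-0.49), Timmdc1 (-0.35) and Gabpa (-0.28) have the lowest values of their lists.

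The surroundings of these genes were measured as the median difference of the 50 nearest genes above the dimmest 30%, 25 on each side in gene order; 7 members near the end of their chromosome, none of them on chromosome 16, had 30 to 45. It was -0.22 for Atp5j and Gabpa, -0.24 for Atp5o, -0.26 for Cox17, -0.27 for Timmdc1 and -0.20 for Tmem186. The median over the 480 clusters of chromosome 16 above the dimmest 30% was -0.23. On chromosome 8 the surroundings of Vdac3 had a median of -0.18. The 87 members off chromosome 16 had surroundings between -0.046 (Uqcrfs1) and 0.090 (Atp5g2, from 43 genes). Atp5j lay above the median of its surroundings, and Atp5o and Cox17 below that of theirs. The 95% intervals of Atp5j (-0.35 to 0.015) and Atp5o (-0.49 to -0.14) contain those medians. That of Cox17 (-0.93 to -0.58) does not. The interval of the brightest Vdac3 cluster (-0.58 to -0.25) also leaves out the median of its surroundings. Those of Timmdc1 (-0.52 to -0.19), Tmem186 (-0.81 to -0.17) and Gabpa (-0.44 to -0.11) contain the medians of theirs.

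Named neighbours varied. Next to Atp5o, Cryzl1 was called lower (-0.50, limma adjusted p = 0.0348). With any 1 array left out its difference ran from -0.52 to -0.48 and the call was lost. The call was also lost with the replicate block (adjusted p = 0.0741) and when all clusters were fitted (0.187). Itsn1, Slc5a3 and Mrps6, also near Atp5o, differed by -0.14, -0.15 and -0.28 and did not pass. Around Atp5j and Gabpa, App fell by 3.23 on the log2 scale (adjusted p = 0.0002), Mrpl39, of the mitochondrial ribosome, differed by -0.33 (adjusted p = 0.156) and Jam2 by 0.061. Near Cox17, Popdc2, Pla1a, Maats1 and Nr1i2 differed by -0.10, -0.14, -0.23 and 0.076, and the last pair lie among the dimmest 30% of clusters. The part of chromosome 16 as a whole in these differences was not tested.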

How the data were processed

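The deposited log2 values give 1 number for each cluster on each array, and the authors made them with RMA (background correction, quantile normalization, summary of probes), per the submitters' processing notes. The sources used here name no version, settings or build. Per the labels' protocols, RNA came from Trizol extraction and a Qiagen clean-up, and labelling followed Affymetrix's WT protocol. Groups were taken from the sample titles.

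The 21789 clusters with 1 symbol were fitted by lmFit and eBayes of limma 3.58.1 under R 4.3.3 (2 residual and 4.00 prior degrees of freedom), two-sided, with Benjamini-Hochberg adjustment and a threshold of 0.05. No filter was used. The median SE was 0.0777; the number of arrays limits the precision. Chromosomes came from the RefSeq annotation of GRCm38.p6, in which all 89 member genes were found by gene ID. Where a gene had several clusters, the one with the highest mean stood for it. On simulated data for this comparison (200 of 21789 clusters changed), limma recovered 23% of changes of 0.5 and 92% of changes of 1, with 7 unchanged clusters called.

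Members, lists and the rule for named genes (chromosome 16 members, calls, the 3 largest rises and falls in each complex, the 2 largest differences and any call in each list, neighbours of chromosome 16 members) were chosen with earlier results of these data known. The neighbours of Cox17, the neighbourhood medians, the motifs, and the comparison of Cox17, Timmdc1 and Tmem186 with subunits were added after seeing the data. Alternatives were a replicate block, leaving out single arrays in turn, an intensity trend or robust prior, removal of the dimmest 30%, quantile or cyclic loess normalization, all 35556 clusters, the mean of a gene's clusters, and an adjusted p of 0.1. Figures were drawn with matplotlib 3.10.9.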

Additional observations from a re-analysis of the deposited data

How the results depend on the processing

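No member cluster was called under any alternative run except an intensity trend, which called 3 (Atp5o and 2 of Atp5md), so that 1 of the 25 named members passed (Atp5o, difference -0.32, adjusted p = 0.00396). Whether same-numbered arrays were prepared together is unknown here, and the correlation between their deviations (r = 0.083) cannot settle it. With the replicate numbers as a block, 159 clusters were called in place of 302, 0 of the members and 1 in the other lists. Over all clusters the count was 593 at an adjusted p of 0.1, 22 with all clusters fitted, 640 without the dimmest 30%, 1121 with a trend and 65 to 75 with any 1 array left out. In the other lists it was 0 with all clusters fitted or any 1 array left out, 6 without the dimmest 30% and 8 with a trend. The median of complex II became 0.060 with quantile normalization (0.029 to 0.050 with any 1 array left out). That of complex V off chromosome 16 became 0.014 with quantile and 0.0076 with cyclic loess normalization (-0.018 to 0.027 with any 1 array left out), that of complex III ran from 0.0047 to 0.10 and that of complex IV from -0.0026 to 0.069. With any 1 array left out, signs changed for Atp5g1 (-0.0057 to 0.18), Cox7b2 (-0.27 to 0.043), Ndufb3 (-0.24 to 0.020), Sdha (-0.00010 to 0.063), Sdhc (-0.0042 to 0.14), Uqcr11 (-0.010 to 0.25) and Uqcrq (-0.080 to 0.068), none of which was called. A further 14 of the 25 named members moved by over 1.5 times without a change of sign. Among them were Atp5j (-0.23 to -0.11), Cox5a (-0.17 to -0.0064), Ndufb2 (0.074 to 0.25), Ndufv1 (0.11 to 0.25) and Ndufa12 (-0.23 to -0.091). Atp5o, Atp5j2, Cox7a2 and Ndufa4l2 moved by less. Cox17 and the called Vdac3 cluster lost their calls as given above. The cause of these changes was not tested.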
